A study of Mus musculus with 8 samples.

Results

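The integrin and laminin genes of the mouse were followed here through the open chromatin of 4 melanoma cell lines, 2 of which are labelled STAT3 knockouts. The members are the 38 protein-coding genes whose symbols start with Itga or Itgb and a subunit number or letter, or with Lama, Lamb or Lamc and a number. They comprise 18 integrin alpha genes, 9 integrin beta genes and 11 laminin chain genes. A region of the deposited count table belonged to a member when it lay inside the gene, or when the end of a member was its nearest protein-coding gene end, within 50 kb. By this rule 457 of 148664 regions were members, 343 inside a gene and 114 outside, with a median of 12 regions per gene. Regions of each gene are numbered here in the order of their coordinates, and inside means between the ends of the gene, since the gene table used here gives no exons. Of the 38 genes, 35 had at least 1 region, and Itgal, Itgax and Itgb2l had none. At the distance limit, the farthest members kept were regions 46.5 kb from Lama2 and 48.9 kb from Itga1 and from Itgb8, with means of 2.09, 1.15 and 2.04 CPM (counts scaled to 1000000 per library with TMM). The nearest regions left out lay 50.7 kb from Itga11, 51.5 kb from Lama4 and 51.5 kb from Lamb1, with means of 5.26, 0.914 and 2.73 CPM.

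The assay was ATAC-seq, which reads open chromatin as the DNA that a Tn5 transposase can cut and tag. Each line had 2 libraries. Lines 119 and 73 carry the floxed allele Stat3fl and stand for the wild type. Lines 112 and 113 carry the deleted allele Stat3Δ and stand for the knockout. STAT3 is a transcription factor switched on by cytokine and growth factor receptors. All 4 lines are cultured pools of cells from lymph nodes of mice that had developed cutaneous melanoma, with onset at about 25 to 30 weeks, although the labels also use the word clone. The driver of the Cre recombinase and the age of each animal are not given in the sources used here. No drug or cytokine treatment is named for any line, each reaction held 50000 cells, and fragments over 1200 bp were removed. The library titles also carry a p number that the labels do not explain. It was 18 for line 112, 44 for 113, 14 for 119 and 68 for 73. This number differs for each line, so its part in differences between lines cannot be told apart from the line and was not tested. The line, not the library, is the unit in which the genotype varied, so the comparison of genotypes has 2 lines on each side. The 2 libraries of a line are labelled biological replicates, and differences between single lines are therefore differences between those pools.

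Library totals ran from 2697546 to 7464336 counts and peak calls from 20387 to 94906, with line 112 replicate 2 the shallowest on both and line 119 replicate 1 the deepest. The strongest region at an end of Stat3 had 30.5 and 25.9 CPM in line 112, 38.5 and 37.5 in 113, 18.2 and 18.2 in 119 and 38.9 and 28.1 in 73. This region was open in both genotypes and does not itself test the deletion. All 7 melanocyte markers listed had a region at a gene end, with summed levels of 124.0 to 250.1 CPM in the knockout libraries, 74.6 to 84.2 in line 119 and 121.6 to 122.8 in line 73. Sox10, a transcription factor of the neural crest and melanocyte lineage, had 23.7, 20.6, 27.4 and 28.3 CPM in the 4 knockout libraries. It had 16 and 19.1 in line 119, but only 2.56 and 3.61 in line 73. For Tyr, Dct and Mlana, line 119 was low as well. Tyr had 14.2 to 22.4 CPM in the knockout libraries, 4.73 to 4.91 in line 119 and 1.67 to 2.05 in 73. In the same order, Dct had 20.6 to 69.3, 3.36 to 4.22 and 0.512 to 0.556. Mlana had 8.95 to 11.6, 0.646 to 0.844 and 0 to 0.512. Tyrp1 was 4.92 or more in the knockout lines and 3.61 or less in the others. Mitf and Pmel overlapped between the genotypes. The 5 fibroblast markers, all with a region, summed to 29 to 32.3 CPM in the knockout libraries, 39.7 to 44.6 in line 119 and 114.5 to 118.5 in line 73. Of the 8 leukocyte markers, 5 (Ptprc, Cd3e, Cd79a, Csf1r and Itgam) had no region at a gene end, and the other 3 summed to 17.9 to 24.0, 14.5 to 15.2 and 19.7 to 24.3 CPM. In these bulk libraries, fewer cells with an open site and a site less open in each cell cannot be told apart.

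Integrins are cell surface receptors made of an alpha and a beta subunit, each crossing the membrane. The pair decides whether the receptor binds collagen, laminin, proteins with the RGD motif such as fibronectin and vitronectin, or counter-receptors on other cells. Laminins are basement membrane proteins built from an alpha, a beta and a gamma chain, and they are ligands of several of these integrins. In melanoma, integrins are known for their part in leaving the epidermis, in invasion through basement membranes and in attachment at distant sites, and a melanocyte normally rests on the laminin of the epidermal basement membrane. ATAC-seq reads neither RNA nor protein, so the values below describe how accessible the DNA at these genes was.

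The promoters of Itga4, Lamb1, Itga5 and Lama5 are shown because the start regions of these genes carried differences followed below: Itga4 and Lamb1 differed between the genotypes in opposite directions, and Itga5 and Lama5 stood apart in line 73 in opposite directions. Each run is the 250 bases before the start of transcription, 5′ to 3′ along the gene, from RefSeq on build GRCm38.p6, with capitals for letters that match a searched motif. The windows are chr2:79255176-79255425 on the plus strand for Itga4, chr12:31265043-31265292 on the plus strand for Lamb1, chr15:103366792-103367041 on the minus strand for Itga5 and chr2:180225860-180226109 on the minus strand for Lama5.
Itga4: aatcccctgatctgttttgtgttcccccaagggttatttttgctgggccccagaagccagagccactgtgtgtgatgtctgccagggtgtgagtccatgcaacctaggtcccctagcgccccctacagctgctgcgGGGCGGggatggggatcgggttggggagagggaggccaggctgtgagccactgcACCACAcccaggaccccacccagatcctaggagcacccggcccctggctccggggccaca
Lamb1: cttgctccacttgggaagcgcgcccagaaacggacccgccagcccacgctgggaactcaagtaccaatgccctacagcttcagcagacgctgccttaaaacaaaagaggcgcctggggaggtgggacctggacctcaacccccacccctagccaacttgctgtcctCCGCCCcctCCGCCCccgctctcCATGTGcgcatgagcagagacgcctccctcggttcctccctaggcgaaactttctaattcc
Itga5: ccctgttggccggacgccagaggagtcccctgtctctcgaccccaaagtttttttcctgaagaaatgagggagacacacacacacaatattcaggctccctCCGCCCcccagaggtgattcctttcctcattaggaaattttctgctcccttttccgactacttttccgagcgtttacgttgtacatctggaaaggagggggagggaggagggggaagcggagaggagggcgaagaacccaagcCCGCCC
Lama5: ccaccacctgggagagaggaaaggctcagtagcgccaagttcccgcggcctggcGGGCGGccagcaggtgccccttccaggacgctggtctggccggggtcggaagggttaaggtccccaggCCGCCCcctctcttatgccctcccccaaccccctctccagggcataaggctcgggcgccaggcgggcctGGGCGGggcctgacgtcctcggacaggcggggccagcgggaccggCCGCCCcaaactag

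These windows hold 64.0%, 62%, 55.6% and 72.4% G and C and 6, 14, 11 and 19 CpG dinucleotides, in that order. In Itga4 the capitals are GGGCGG (SP1/KLF), 114 bp before the start, and ACCACA (RUNX), 60 bp before it. In Lamb1 they are CCGCCC (SP1/KLF) at 84 and 75 bp and CATGTG, an E-box of the kind read by MITF, at 61 bp. Itga5 has CCGCCC at 149 and 6 bp, and Lama5 has GGGCGG at 196 and 59 bp and CCGCCC at 128 and 14 bp. Promoter sequence was matched for 24 of the 38 genes, some with more than 1 start, which gave 27 windows that were set beside 32851 windows of all genes, with both strands searched. GGGCGG (SP1/KLF) was in 33.3% of member windows against 32.7% of all windows, CATGTG or CACGTG (E-box) in 18.5% against 17.6%, GGAATG (TEAD) in 11.1% against 12.6%. TGTGGT (RUNX) was in 7.41% against 14%, TTCNNNGAA (STAT) in 7.41% against 7.02%. TGANTCA (AP-1) was in 3.70% against 6.75% and TTGCNNAA (C/EBP) in none against 9.56%. These are shares of letters in a short window, given as a description, and 27 windows are few.

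Start regions were the first readout: for each gene, the strongest region within 1 kb of its start, or of either gene end where the promoter table gave no start (10 of the 25 genes with such a region). Their median was 19.2 CPM per kb of region, against 6.21 for the other member regions. Levels per kb were highest at Itgb1, the beta subunit shared by many integrins, with 74.3 CPM per kb, followed by Itgav with 64.1 and Itgb8 with 63.9. They were lowest at Lamb3 with 5.71 and Lama3 with 7.77, both chains of an epithelial laminin. Itgb1 had 40.3 and 26.8 CPM in line 112, 64.8 and 54.2 in 113, 36.2 and 31.4 in 119 and 63.0 and 63.9 in 73. Lines 113 and 73, of opposite genotypes, were both high, and the genotypes overlapped. Itgav, the alpha subunit of the vitronectin receptors, had 36.1 and 20.6, 51.2 and 49.1, 29.9 and 32.6, and 37.1 and 38.9 CPM in lines 112, 113, 119 and 73, again with overlap. Of the 25 start regions, 19 had overlapping library ranges between the genotypes, 2 were higher in every knockout library than in every wild-type library (Itga4 and Itga8) and 4 were lower (Itga7, Itgb2, Itgb7 and Lamb1). Over all tested regions, the libraries of the genotypes did not overlap at 14% with the knockout higher and at 12.6% with it lower. Start regions also set single lines apart, by the rule that all 3 pairs of lines with it passed the test with 1 sign. The background is the share of all 16106 tested regions with their middle within 1 kb of a gene end. Those were not picked as the strongest of a gene, so the 2 sets are not fully alike. Line 73 was alone high at 7 of 25 (among them Itga5, Itga7, Itgb2, Itgb7, Lamb1 and Lamc3, with a background of 12.1%). It was alone low at 3 of 25 (Itga4, Lama4 and Lama5, with a background of 4.00%). Line 113 was alone high at 5 of 25 (Itga1, Itga2, Itga6, Lama1 and Lama4, with a background of 7.29%). Line 112 was alone low at 2 of 25 (Lama1 and Itgb8, with a background of 3.07%). The heat map of start regions shows these blocks.

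**Figure D1:**
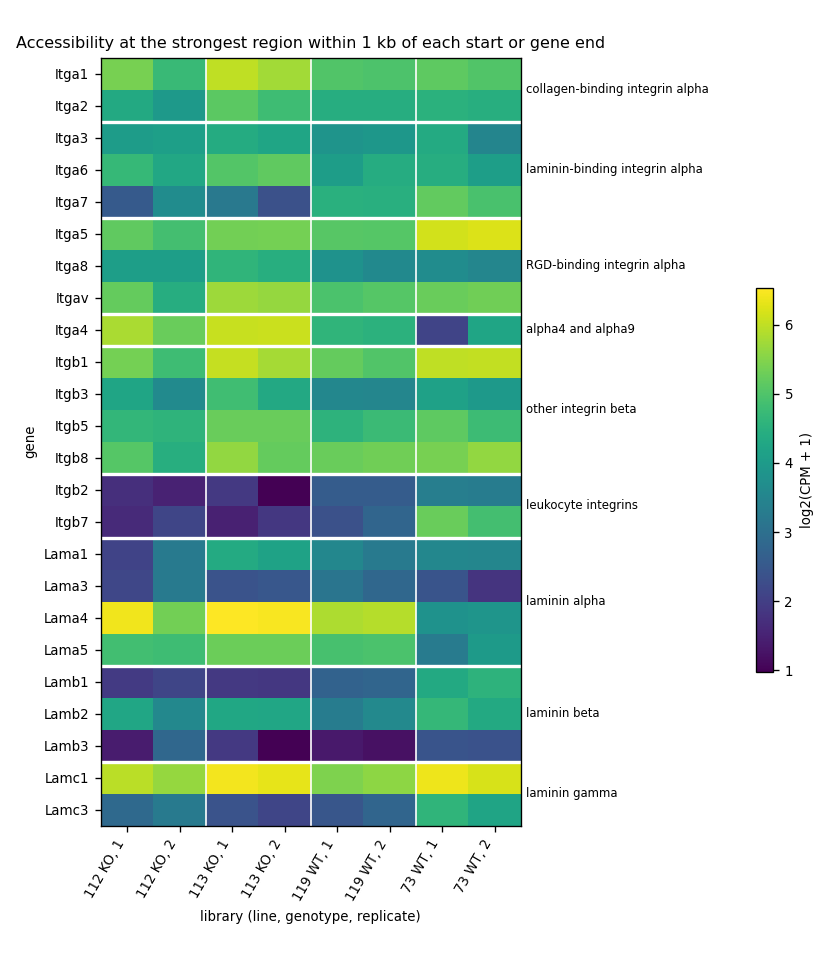
Accessibility at the start regions of 24 integrin and laminin genes (rows, grouped by role) in the 8 libraries (columns), as log2(CPM + 1). Lighter colors are higher values. The Itga4 row is lighter in the 4 knockout libraries, the Itga7, Itgb2, Itgb7 and Lamb1 rows are darker in them, and line 73 differs from the other lines in both directions.

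With lines as units, no member region passed the test of the genotype. The test was edgeR's quasi-likelihood test on counts summed per line, adjusted by Benjamini-Hochberg over 140329 regions, of which 443 were members (14 members had too few counts). At an adjusted p under 0.05 it called 0 of 443 member regions, where it called 0.00% of all regions; the smallest adjusted p of a member was 0.143. At an unadjusted p under 0.05 it had 78 members (17.6%), 36 higher and 42 lower in the knockout, against 16.9% of all regions (8.27% higher and 8.64% lower). Among other tools, limma-voom, treating lines as random blocks, called 1 member and 0.291% of all regions. The DESeq2 Wald test on lines called 22 of 443 members and 6986 of 140329 regions. The latter are 7.43% of the 94078 regions to which that test gave an adjusted p, a base that does not match the 443 members. Taking the libraries as units called 94 members and 22.7% of all regions, but then the 2 libraries of a pool count as independent. The median log2 fold change of the members, knockout over wild type, was -0.15, against -0.09 over all regions, and 202 members (45.6%) were above 0 against 46.5% of all. On these measures, the members as a group were close to the background.

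Single lines were therefore set against each other, 2 at a time, with all 8 libraries fitted together and 1 mean for each line. This tests those lines and not the genotype. Line 112 against 119 called 182 member regions (41.1%, with 45.8% of all regions called), 68 higher (background 22.2%) and 114 lower (background 23.5%). Line 112 against 73 called 233 (52.6%, background 49.9%), 109 higher (background 23.8%) and 124 lower (background 26.1%). Line 113 against 119 called 228 (51.5%, background 58.9%), 108 higher (background 30.2%) and 120 lower (background 28.8%). Line 113 against 73 called 256 (57.8%, background 52.2%), 131 higher (background 25.8%) and 125 lower (background 26.5%). Within a genotype, the 2 wild-type lines differed at 245 member regions (55.3%, background 56.9%), 126 higher (background 27.5%) and 119 lower (background 29.4%) in line 119. The 2 knockout lines differed at 84 (19.0%, background 23.8%), 20 higher (background 8.24%) and 64 lower (background 15.6%) in line 112. With total counts in place of TMM, the split of the 2 knockout lines turned to 49 higher and 41 lower (15.7% and 8.64% of all regions), and that of line 112 against 73 to 135 and 102 (30.5% and 19.1%). That scaling moved the median log2 fold change of all regions from 0.08 to 0.41 for the first pair and from 0.08 to 0.40 for the second. The directions in these pairs thus depend on the scaling. The share of integrin and laminin regions called between the wild-type pools thus lay within the range of shares called between a knockout and a wild-type pool. These comparisons share lines and are not independent of each other.

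A member region is called separated below when it passed an adjusted p under 0.05 with the same sign in every comparison of a knockout with a wild-type line, 4 in all. There were 65 such regions, 32 higher in the knockout (7.22%, background 7.64%) and 33 lower (7.45%, background 7.41%). Separated regions were thus about as common at these genes as over the whole table. In 64 of them the 4 knockout libraries did not overlap the 4 wild-type libraries, the exception being Lama2 region 16. Peak calls come from the same libraries and are given as a description. Of the 32 higher regions, 28 had more peak calls in knockout than in wild-type libraries (87.5%, against 86.6% of all separated higher regions) and 20 had calls in knockout libraries alone (62.5% against 62.1%). Of the 33 lower regions, 32 had more calls in wild-type libraries (97.0% against 98.0%) and 28 had calls in wild-type libraries alone (84.8% against 78.6%). At 23 of the lower regions all 4 wild-type libraries and no knockout library had a call (69.7% against 60.3%). The reverse held at 2 of the higher regions (6.25% against 6.16%), Itgb5 region 16 and Itga9 region 29. The knockout libraries had 20387 to 52250 peak calls and the wild-type libraries 56096 to 94906, and the shares of the members were near those of the whole table. Of the 65, 55 lay inside a gene. Of the 30 tested members with their middle within 1 kb of a gene end, 5 were separated (16.7%, where the same held for 6.24% of all 16106 such regions): Itga4 region 5, Itga7 region 3, Itgb2 region 1, and Lamb1 regions 5 and 6. The plot of 10 separated regions by library shows the size of these differences beside the spread within a line.

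**Figure D2:**
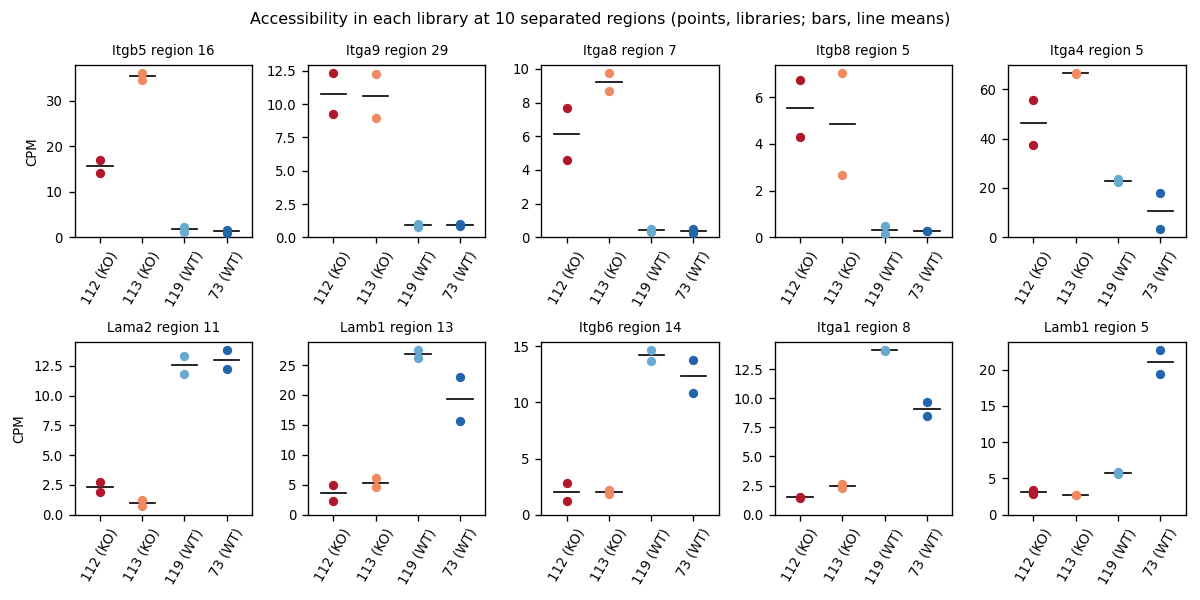
CPM in each of the 8 libraries (points, colored by line, with a bar at each line mean) at 10 separated member regions, 5 higher and 5 lower in the knockout lines. At Itgb5 region 16 the knockout libraries lie between 14.2 and 36.0 CPM and the wild-type libraries between 1.02 and 2.36. At Lama2 region 11 the knockout libraries lie between 0.680 and 2.77 and the wild-type libraries between 11.8 and 13.8.

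Of the 35 genes with regions, 24 had at least 1 separated region: 6 had only higher ones, 9 only lower ones and 9 both, and 11 had none. Over all 17464 genes with a tested region, 41.8% had at least 1, 16% only higher, 16.1% only lower and 9.74% both, but those genes had a median of 4 tested regions where the members had 10. Itga9 had the most, 7 higher and 0 lower of 30 tested regions, followed by Lamc1 with 3 higher and 3 lower of 24. Next were Lama2 with 1 higher and 4 lower of 29 and Lamb1 with 0 higher and 5 lower of 17. By role, the pair Itga4 and Itga9 had 11 higher and 0 lower of 44 tested regions and a median log2 fold change of 0.57. The laminin beta genes had 0 higher and 6 lower of 31 with a median of -0.33. The other integrin beta genes had 6 and 6 of 96 and the laminin alpha genes 4 and 6 of 79. The RGD-binding alpha genes had 5 and 2 of 51, the collagen-binding alpha genes 0 and 2 of 48, the laminin-binding alpha genes 1 and 2 of 30 and the leukocyte integrins 0 and 4 of 24. Over all regions, 7.64% were separated higher and 7.41% lower, and differences of single roles from these shares were not tested. Without line 112 replicate 1 the count for Itga4 and Itga9 fell from 11 to 7, and that for the laminin beta genes from 6 to 3. Without line 73 replicate 1 the former was also 7. The higher regions of the laminin alpha genes fell from 4 to 0 without line 112 replicate 1, to 1 without line 73 replicate 2, and to 2 without line 113, 119 or 73 replicate 1. Those of the RGD-binding genes fell from 5 to 3 without replicate 1 of line 112, 119 or 73. The lower regions of the leukocyte integrins fell from 4 to 2 without replicate 1 of line 112 or 119, and those of the collagen-binding genes from 2 to 1 without either of these or line 73 replicate 2. The laminin-binding genes had 0 to 2 higher regions over these fits (0 without line 73 replicate 2), and 4 lower without line 112 replicate 2. In the DESeq2 Wald test of pairs, Itga4 and Itga9 had 6 higher regions and the laminin beta genes 3 lower. There the laminin alpha genes had 0 higher and the leukocyte integrins 1 lower, with 35 separated over all members in place of 65. With a mean count of at least 50, 4 regions of Itga4 and Itga9 were tested, and 1 was separated. For Itga4 with Itga9 and for the laminin beta genes, no separated region of the opposite sign appeared in any of the 8 fits that left out a library. The bars by gene show the split.

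**Figure D3:**
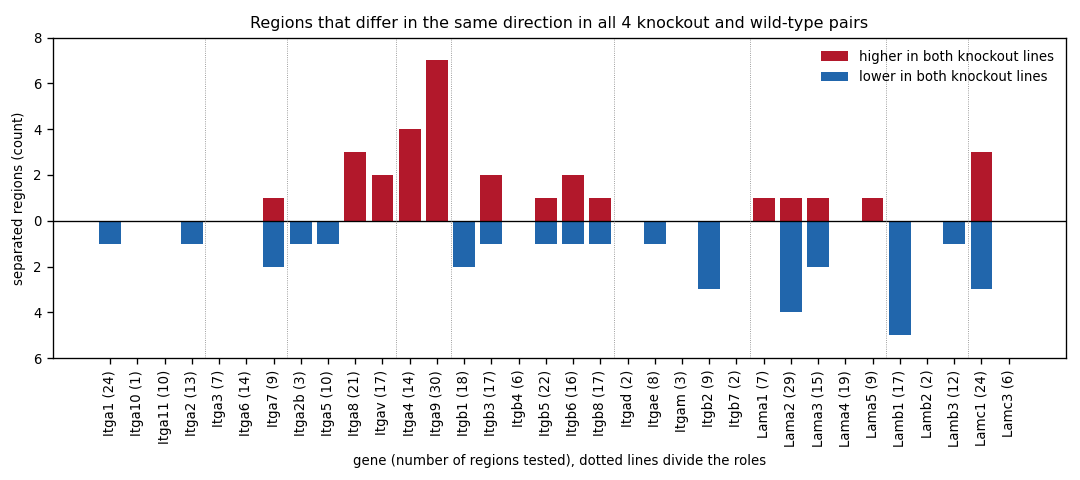
Number of separated regions per gene for 34 genes (red bars upward, higher in the knockout lines; blue bars downward, lower), with the number of regions tested beside each gene name on the horizontal axis. Itga9 and Itga4 have upward bars only (7 and 4), Lamb1 and Itgb2 downward bars only (5 and 3), and Lamc1 has 3 in each direction.

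Itga4 encodes the alpha subunit of receptors for VCAM1 and fibronectin that are best known on leukocytes and in the neural crest. Its start region, region 5 (chr2:79254689-79255801, holding the promoter printed above), had 55.6 and 37.2 CPM in line 112, 66.2 and 66.5 in 113, 23.5 and 22.5 in 119 and 3.33 and 17.8 in 73. All 4 knockout libraries lay above all 4 wild-type libraries, and the 2 libraries of line 73 were far apart. The mean was 56.4 ± 14.1 CPM (SD of line means, n = 2 lines) in the knockout and 16.8 ± 8.79 in the wild type. This was a log2 fold change of 1.75 ± 0.64 (SE, adjusted p 0.196) in edgeR's test, and the pair log2 fold changes ran from 1.03 to 2.68. Regions 4, 6 and 10 of the gene were also separated, but with few counts. Region 4 (chr2:79250336-79250925, 4501 bp before the start) had 6.28, 5.23, 16.3 and 11.1 CPM in the knockout libraries and 3.36, 2.87, 0.512 and 1.11 in the wild-type libraries, so line 113 was highest and line 73 lowest. Region 6 had 7 to 19 counts in each knockout library and 1 or 2 in each wild-type library, and region 10 had 4 to 9 and 1 to 3, too few for a firm ratio. At region 3 (chr2:79240290-79240911), both libraries of line 73 had 0 counts, which allows up to 0.768 and 0.833 CPM by a limit of 3 counts, while line 119 had 3.62 and 3.55 CPM and the knockout libraries 5.23 to 9.51. The sum over all 15 regions of Itga4 was 139.4 and 108.7 CPM in line 112, 193.9 and 175.9 in 113, 93.2 and 92.4 in 119 and 29.7 and 46.1 in 73. Line 113 was highest and line 73 lowest, and the genotypes did not overlap. The number of separated regions of Itga4 fell from 4 to 1 without line 112 replicate 1, and to 2 without line 119 replicate 1, line 119 replicate 2 or line 73 replicate 1.

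Itga9, which encodes the alpha subunit of a receptor for tenascin and osteopontin, had its separated regions inside the gene and none within 1 kb of its ends. Region 2, at the lower-numbered end (chr9:118606344-118607177), had 20.9 and 20.3 CPM in line 112, 20.8 and 16.2 in 113, 15 and 14.5 in 119 and 16.9 and 16.9 in 73, with overlap between the genotypes. Region 29, near the other end (chr9:118896910-118897467), had 12.3 and 9.23 CPM in line 112, 12.2 and 8.95 in 113, 0.775 and 1.01 in 119 and 1.02 and 0.833 in 73. The 2 knockout lines were alike here and so were the 2 wild-type lines, with means of 10.7 ± 0.136 and 0.912 ± 0.0244 CPM (SD of line means, n = 2 lines). The log2 fold change was 3.55 ± 0.93 (SE, adjusted p 0.143). A peak was called in all 4 knockout and no wild-type libraries. Region 4 (chr9:118641710-118642289) had 4.89, 5.85, 9.51 and 5.32 CPM in the knockout libraries and 0.517, 0.338, 1.02 and 0.278 in the wild-type libraries. Region 6 (chr9:118651933-118652514) had 6.75, 4.92, 6.12 and 4.84 against 1.03, 1.69, 0.768 and 1.11. Both were separated by a wide gap, although the wild-type values rest on 1 to 10 counts. Region 22 (chr9:118801478-118802127) had 2.09, 4.62, 16.5 and 6.53 CPM against 0.517, 1.01, 0.768 and 0.833, with line 113 replicate 1 well above the rest. Regions 18, 19 and 25 made up the 7, with log2 fold changes of 2.15, 1.93 and 2.50. Another 3 regions of Itga9 were high in line 113 alone, among them region 21 (chr9:118799054-118799600) with 13.1 and 7.98 CPM in line 113 and 0.388 to 2.33 in the other lines. Summed over its 30 regions the gene did not separate the genotypes, with 155.9 and 148.7 CPM in line 112, 195.7 and 137.4 in 113, 145.3 and 142.7 in 119 and 64.3 and 63.9 in 73. Without any 1 library, Itga9 had 5 to 7 separated regions, all higher.

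**Figure D4:**
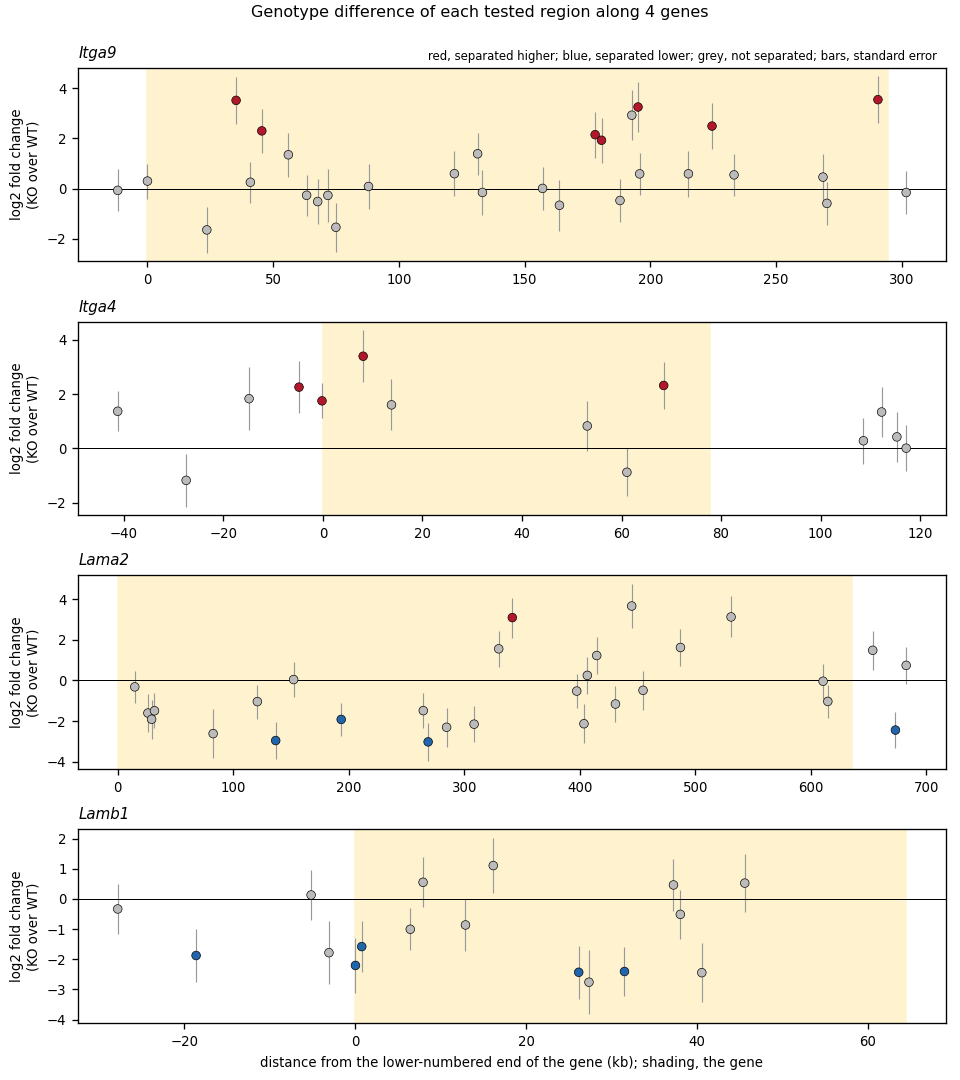
Genotype log2 fold change (knockout over wild type, lines as units, with its standard error) of each tested region along Itga9, Itga4, Lama2 and Lamb1, by distance in kb from the lower-numbered gene end. Red points are separated and higher, blue points separated and lower, grey points not separated, and shading marks the gene. The separated regions of Itga9 and Itga4 lie above 0, from 1.75 to 3.55, and the 5 of Lamb1 lie below it, from -2.43 to -1.58.

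Among the alpha subunits that bind RGD ligands, Itga8 had 3 separated regions, all higher in the knockout and all inside the gene. Region 7 (chr2:12147141-12147777) had 7.68 and 4.62 CPM in line 112, 9.74 and 8.71 in 113, 0.517 and 0.338 in 119 and 0.512 and 0.278 in 73. The groups were far apart, with a log2 fold change of 4.15 ± 0.98 (SE, adjusted p 0.143), though wild-type libraries held 1 to 4 counts. Region 8 had 9.08, 3.39, 6.12 and 6.05 CPM against 1.55, 1.18, 0.768 and 1.11, and region 13 had 2.79, 2.77, 4.76 and 5.08 against 1.16, 0.675, 1.28 and 0.833. At the start of Itga8, which pairs with beta1 to bind nephronectin and fibronectin, the knockout libraries had 16.1, 16, 23.3 and 20.8 CPM and the wild-type libraries 12.9, 11.3, 11.8 and 10.6. These did not overlap. The pairs of line 112 with 119 and with 73 did not pass the test. Without line 112 replicate 1, Itga8 had 1 separated region in place of 3. Itgav had 2 separated regions, both higher, although a lower one appeared in some fits that left out a library. Region 3 (chr2:83706305-83706886) had 3.96, 3.08, 6.80 and 8.95 CPM against 0.258, 0.675, 0.512 and 0.556, and region 10 had 2.56, 2.77, 8.16 and 4.11 against 0.775, 0.844, 0.512 and 0.556. Itgav had 1 separated region in place of 2 without line 119 replicate 1 or line 73 replicate 1. In contrast, Itga2b, the platelet alpha subunit, was lower at region 2 (chr11:102465825-102466425), with 4.65, 6.16, 2.27 and 2.66 CPM against 12.4, 14.5, 33.5 and 25.0. It had a log2 fold change of -2.46 ± 0.85 (SE, adjusted p 0.181). The fibronectin receptor subunit Itga5 was lower at region 4 (chr15:103358109-103359145), with 23.7, 18.2, 25.8 and 24.9 CPM against 39.5, 37.5, 55.8 and 69.4. The difference was graded, and line 73 was highest.

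The collagen-binding subunits Itga1 and Itga2 lie side by side on chromosome 13 and had 1 separated region each, both lower. Itga1 region 8 (chr13:115005276-115005942) had 1.40 and 1.54 CPM in line 112, 2.27 and 2.66 in 113, 14.1 and 14.2 in 119 and 8.45 and 9.72 in 73. Every knockout library was well below every wild-type library, with a log2 fold change of -2.57 ± 0.89 (SE, adjusted p 0.182). Itga2 region 10 (chr13:114918017-114918608) was weaker, with 1.40, 1.54, 0.680 and 0.968 CPM against 5.56, 3.04, 3.84 and 4.44. It was no longer separated without line 112 replicate 1, line 119 replicate 1 or line 73 replicate 2. The same held with total counts and with the shift of the surrounding 10 Mb taken out. Their start regions behaved otherwise. Itga1 region 19 had 41.2, 25.9, 63.0 and 53.5 CPM against 31.7, 30.7, 34.3 and 31.7, and Itga2 region 13 had 19.3, 14.8, 34.2 and 27.1 against 20.7, 20.6, 22 and 20.8. In both, line 113 alone was high. Itga10 and Itga11, the other collagen receptors, had 1 and 10 regions and none was separated.

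Of the laminin-binding subunits, Itga7, known from muscle, was lower in the knockout at its end and higher in 1 region inside. Region 3 (chr10:128933536-128934777, 115 bp from a gene end) had 4.89 and 11.7 CPM in line 112, 8.38 and 4.11 in 113, 21.6 and 21.4 in 119 and 35.8 and 29.7 in 73. The genotypes did not overlap, with means of 7.27 ± 1.45 and 27.1 ± 7.97 CPM (SD of line means, n = 2 lines) and a log2 fold change of -1.95 ± 0.74 (SE, adjusted p 0.206). Its neighbour, region 4, had 4.65, 6.16, 4.76 and 3.14 CPM against 14.5, 11.6, 11.8 and 10.8. In contrast, region 8 (chr10:128951345-128951906), nearer to the end of Mettl7b, had 4.19, 3.39, 6.12 and 7.74 against 0.775, 1.18, 1.28 and 0.278. Itga7 had no higher region without line 73 replicate 2. Itga6, the main laminin receptor subunit of basal epithelial cells, had no separated region, yet the sum over its 14 regions did not overlap between the genotypes. It was 74.5 and 69.6 CPM in line 112, 104.7 and 97.0 in 113, 64.5 and 66.5 in 119 and 64.0 and 48.1 in 73. That gap is narrow, since line 112 lies closer to line 119 than to line 113. Itga3, its close relative, had 15.6, 16.3, 19.9 and 17.9 CPM at the start against 13.4, 14, 19.7 and 10.3, with overlap and no separated region among 7.

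Itgb5, which pairs with alphaV to bind vitronectin, held the member region with the smallest p of the genotype test. Region 16 (chr16:33907686-33908913), inside the gene and 78021 bp from its start, had 17.0 and 14.2 CPM in line 112, 36.0 and 34.6 in 113, 1.16 and 2.36 in 119 and 1.02 and 1.67 in 73. Both knockout lines were high and both wild-type lines near background, with means of 25.4 ± 14 and 1.55 ± 0.296 CPM (SD of line means, n = 2 lines). The log2 fold change was 4.05 ± 0.89 (SE, adjusted p 0.143). It passed the threshold in limma-voom (adjusted p 0.0488), among regions with a peak call alone (0.0439) and without line 112 replicate 1 (0.0393). Farther along the gene, region 19 (chr16:33922247-33923354) went the other way, with 3.49, 3.39, 3.40 and 1.45 CPM against 8.66, 10.8, 20.7 and 21.9. The start region of Itgb5 overlapped between the genotypes, at 24.0, 23.1, 37.4 and 37.5 CPM against 22.7, 26.0, 34.6 and 26.4.

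Opposite changes within 1 gene were also seen at Itgb3, Itgb6 and Itgb8, which also encode partners of alphaV. Itgb3, a subunit linked to the vertical growth of melanoma, was higher at region 3 (chr11:104609687-104610459), with 5.59, 8.93, 13.1 and 8.71 CPM against 1.68, 1.35, 2.3 and 2.50. It was lower at region 13 (chr11:104640829-104641368), with 0.931, 3.08, 3.40 and 1.45 against 5.95, 8.10, 17.2 and 19.2. Its region 14 was higher as well, with 28.4, 16.6, 30.4 and 23.0 CPM against 14.7 and 13.8 in line 119 and 3.58 and 3.61 in line 73. Line 119 lay close to line 112 replicate 2. Itgb3 had 1 higher region in place of 2 without line 112 replicate 1 or either library of line 119. Itgb6, an epithelial subunit that activates TGF-beta, was lower at region 14 (chr2:60699939-60700474), with 2.79 and 1.23 CPM in line 112, 1.81 and 2.18 in 113, 13.7 and 14.7 in 119 and 13.8 and 10.8 in 73. Here the lines of a genotype were alike, with means of 2.00 ± 0.0122 and 13.3 ± 1.32 CPM (SD of line means, n = 2 lines) and a log2 fold change of -2.70 ± 0.87 (SE, adjusted p 0.165). Itgb6 regions 10 and 17 were higher, with 7.48 to 9.54 against 1.54 to 2.58 CPM and 5.23 to 12.9 against 0.556 to 2.07. Itgb8 region 5 (chr12:119159197-119159834) had 6.75, 4.31, 7.02 and 2.66 CPM against 1 to 3 counts in each wild-type library. Region 12 had 0 to 5 counts in each knockout library against 6.07, 5.07, 3.84 and 3.33 CPM. At both, 1 genotype was near the floor of what these libraries can count. Itgb8 had no lower region without line 112 replicate 2 or line 73 replicate 1. Itgb1 was lower at 2 regions. Region 5 (chr8:128666498-128667252, 18402 bp before its start) had 12.3, 8.93, 15 and 10.6 CPM against 28, 26.0, 26.4 and 30.0, and region 13 had 8.38, 5.23, 7.48 and 7.26 against 16.4, 16.2, 11.5 and 13.9. Those values were close within each genotype, although the start of Itgb1 overlapped between them. Itgb1 had 1 lower region in place of 2 without replicate 2 of line 112, 113 or 73, or with total counts.

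The leukocyte integrins had 24 tested regions in 5 genes, with 0 separated higher and 4 lower, 3 of them at Itgb2, the common beta subunit of leukocyte integrins. Itgb2 region 2 (chr10:77531621-77532247) had 2.56 and 4.00 CPM in line 112, 1.59 and 1.45 in 113, 10.5 and 9.29 in 119 and 18.7 and 14.7 in 73. The genotypes did not overlap, with a log2 fold change of -2.51 ± 0.89 (SE, adjusted p 0.187), and line 73 was highest. Region 1, at the gene end, had 2.33, 1.85, 2.72 and 0.968 CPM against 5.04, 5.07, 9.22 and 8.89, and region 4 had 2.56, 3.69, 1.59 and 1.69 against 6.46, 5.91, 16.9 and 20. Without line 119 replicate 1, Itgb2 had 1 separated region in place of 3. Itgb7, whose product pairs with alpha4 or alphaE in gut homing, was not separated but was high in line 73 alone. Its start region 2 (chr15:102230542-102231099) had 2.09, 3.39, 1.81 and 2.66 CPM in the knockout libraries, 4.14 and 5.91 in line 119 and 37.4 and 28.3 in 73. The fourth separated region was Itgae region 6, with 1.40, 2.77, 1.59 and 2.18 CPM against 5.43, 5.57, 4.10 and 5.83. It was lost without replicate 1 of line 112 or 113 or replicate 2 of line 73, and with total counts. Markers that define leukocytes, Ptprc, Cd3e, Cd79a, Csf1r and Itgam, had no region at a gene end in this table, and neither Itgal nor Itgax had any region, so the open sites at Itgb2, Itgb7 and Itgae were seen without them.

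Laminin alpha chains differed from one another. Lama2, the alpha chain of muscle and nerve laminin and at 636 kb the longest member gene, had 1 region higher and 4 lower. Region 11 (chr10:27249580-27250289) had 1.86 and 2.77 CPM in line 112, 0.680 and 1.21 in 113, 13.3 and 11.8 in 119 and 13.8 and 12.2 in 73. The wild-type lines were alike and the knockout lines both low, with means of 12.8 ± 0.325 and 1.63 ± 0.970 CPM (SD of line means, n = 2 lines) and a log2 fold change of -3.02 ± 0.92 (SE, adjusted p 0.153). Region 7 (chr10:27117726-27118295) had 1.40, 1.23, 0.906 and 0.726 CPM against 7.11, 5.91, 8.96 and 11.4. Region 9 had 4.42, 4.31, 2.95 and 7.26 against 15.6, 11.5, 21.5 and 21.9, and region 32 had 1.40, 0.923, 1.36 and 0.242 against 6.33, 5.74, 4.61 and 5.00. The higher one, region 16 (chr10:27322525-27323090), had 4.65, 1.23, 13.6 and 11.1 CPM against 1.29, 0.844, 1.02 and 0.278. In each of the 8 fits that left out a library Lama2 had 4 lower regions, but it had no higher one without line 112 replicate 1, line 119 replicate 2 or line 73 replicate 2. Lama2 also had 5 regions high in line 113 alone, among them region 25 (chr10:27511805-27512486) with 24.2 and 22.3 CPM in line 113 against 3.49 and 3.69 in line 112 and 1.01 to 1.81 in the wild-type libraries. Region 22 had 9.06 and 6.05 against 1.86 and 1.23 in line 112 and 0 to 0.517 in the wild type. Along this gene, sites low in both knockout pools lay among sites high in line 113 alone.

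Lama4, the alpha chain of endothelial and mesenchymal basement membranes, had no separated region among 19, but its start followed the line. Region 1 (chr10:38964736-38966373) had 83.8 and 39.4 CPM in line 112, 91.3 and 87.6 in 113, 56.5 and 59.1 in 119 and 13.1 and 13.6 in 73. Line 73 was far below the other lines (log2 fold change 2.11 for line 119 over 73, adjusted p 4.54e-12 in edgeR). The genotype log2 fold change was 1.09 ± 0.67 (SE, adjusted p 0.424). Lama5, the alpha chain of most adult epithelial basement membranes, was likewise low in line 73 at its start, region 7 (chr2:180225087-180226273, holding the promoter above). It had 27.9 and 26.8 CPM in line 112, 37.6 and 37.7 in 113, 29.1 and 30.1 in 119 and 8.71 and 15 in 73. Its 1 separated region, region 1, was modestly higher, with 6.28, 4.92, 6.80 and 5.08 CPM against 2.07, 2.53, 2.3 and 3.06. It was lost without replicate 1 of any 1 of the 4 lines, and with the shift of the surrounding 10 Mb taken out. Lama1, the embryonic alpha chain, had 1 separated region, region 7, with 4.42, 1.54, 6.12 and 3.39 CPM against 0.775, 0.844, 1.54 and 0.556. It was lost without replicate 1 of line 112 or 113 or replicate 2 of line 73. At its start the 2 knockout lines lay on opposite sides of the wild type, with 3.26 and 8.62 CPM in line 112, 19.7 and 16.9 in 113, 10.7 and 8.61 in 119 and 10.8 and 10.6 in 73.

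Lamb1, the beta chain of the most widespread laminins, had 5 of 17 tested regions lower in the knockout and none higher. Its start, region 5 (chr12:31264864-31265494, holding the promoter above), had 2.79 and 3.39 CPM in line 112, 2.72 and 2.66 in 113, 5.56 and 5.91 in 119 and 19.5 and 22.8 in 73. No knockout library reached a wild-type library, but line 73 stood far above line 119. The region had a log2 fold change of -2.21 ± 0.91 (SE, adjusted p 0.237). Region 6, directly after it, had 2.56, 5.85, 4.08 and 2.18 CPM against 7.63, 8.61, 13.6 and 13.1. Inside the gene, region 13 (chr12:31296064-31297278) had 2.33, 4.92, 4.53 and 6.05 CPM in the knockout libraries, 26.1 and 27.5 in line 119, and 15.6 and 23.1 in line 73, with a log2 fold change of -2.41 ± 0.80 (SE, adjusted p 0.171). Region 11 (chr12:31290815-31291816) had 0.931, 1.85, 2.04 and 0.968 against 8.01, 8.95, 6.40 and 7.5. There line 119 was at or above line 73, in the opposite order to the start. Region 2, 18448 bp before the start, had 1.63, 3.69, 1.59 and 1.21 CPM against 7.24, 9.29, 6.15 and 6.11. Summed over 17 regions, Lamb1 had 58.7 and 76.3 CPM in line 112, 125.5 and 110.1 in 113, 162.3 and 172.9 in 119 and 142.4 and 164.7 in 73. The genotypes did not overlap, and line 112 was lowest. Line 112 alone was low at region 7 (chr12:31271250-31271944), with 8.84 and 9.85 CPM against 24.0 and 16 in line 113 and 21.3 to 40.6 in the wild type. Line 119 alone was high at region 16 (chr12:31305462-31305981), with 16.2 and 14.7 CPM against 1.36 to 3.84 elsewhere. Lamb1 had 2 separated regions in place of 5 without line 112 replicate 1 or in the DESeq2 Wald test. It had 3 without line 119 replicate 2 or with total counts.

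The gamma chain gene Lamc1, which most laminins share, had 3 regions higher and 3 lower of 24, interleaved along the gene. Region 8 (chr1:153273576-153274165) had 18.2 and 11.4 CPM in line 112, 34.9 and 30.5 in 113, 8.40 and 8.27 in 119 and 1.28 and 1.67 in 73. This is a descending order of lines with no overlap. Region 5 followed the same order, with 12.6, 13.5, 33.1 and 29.5 CPM against 8.79, 7.09, 2.3 and 5.00, and region 24 was weak, at 1.94 to 3.08 against 0.256 to 1.11. Region 15 (chr1:153300299-153300839) was lower, with 3.49, 2.77, 0.906 and 3.14 CPM against 10.2, 8.44, 27.9 and 20.3 and a log2 fold change of -2.70 ± 0.89 (SE, adjusted p 0.170). Regions 6 and 23 had 2.72 to 3.39 against 6.42 to 11.7 and 0.931 to 3.08 against 5.07 to 6.94. At regions 5 and 8, line 119 lay between the knockout lines and line 73, and without either library of line 119 Lamc1 had 0 higher regions in place of 3. The strong start region 21 overlapped, at 60.5, 49.2, 85.9 and 79.3 CPM against 43.2, 46.9, 83.0 and 72.2.

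Lama3 and Lamb3, chains of the epithelial laminin that anchors basal keratinocytes and melanocytes, each had at least 1 separated region lower in the knockout. Lama3 region 10 (chr18:12484106-12484683) had 1.16 and 3.39 CPM in line 112, 1.36 and 1.21 in 113, 4.78 and 5.57 in 119 and 18.9 and 18.6 in 73. Region 13 had 0.465, 2.46, 1.13 and 1.45 against 4.91, 3.21, 5.12 and 5.56. Lamb3 region 2 (chr1:193298063-193298681) had 2.56, 4.62, 3.17 and 1.94 CPM against 12.4, 11.3, 14.6 and 11.9, with the 2 wild-type lines alike, and a log2 fold change of -2.08 ± 0.85 (SE, adjusted p 0.235). Lama3 also held a region of the other sign, region 3, with 1.81 to 3.14 CPM against 0.388 to 0.844. The lower regions of Lama3 fell from 2 to 0 without line 112 replicate 1, with the shift of the surrounding 10 Mb taken out and in the DESeq2 test, and to 1 without either library of line 119. It had a higher region without line 113 replicate 1 or line 119 replicate 2 and none in the other fits that left out a library. Summed per gene, Lama3 did not overlap, with 34.7 and 48.3 CPM in line 112, 34.0 and 37.0 in 113, 64.4 and 65.3 in 119 and 69.1 and 64.7 in 73. Lamb3 did overlap. Epithelial markers overlapped between the genotypes. Of 4 listed, Krt5 and Cdh1 had no region at a gene end. Epcam and Krt8 summed to 4.35 to 10.8 CPM in the knockout, 5.56 to 6.25 in line 119 and 9.72 to 12.5 in line 73.

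Regions that set 1 line apart were counted by the rule used for the start regions. Line 73 alone was the highest at 78 member regions (17.6%, background 13.2%) and the lowest at 67 (15.1%, background 10.2%), together 145 of 443 (32.7%, background 23.4%). For line 119 these counts were 42 (9.48%, background 11.0%) and 7 (1.58%, background 4.86%), together 49 (background 15.8%). For line 113 they were 39 (8.80%, background 7.26%) and 7 (1.58%, background 2.65%), together 46 (background 9.91%). For line 112 they were 1 (0.226%, background 1.76%) and 8 (1.81%, background 1.28%), together 9 (background 3.04%). With total counts, line 113 had 26 high and 16 low (4.35% and 4.81% of all regions), and line 112 had 2 and 4 (3.46% and 0.762%), so the split in those lines also depends on the scaling. Line 73 had both shares above background, and it had 119 to 141 such regions when any 1 library was left out. With a mean count of at least 50, which left 76 members to test, line 73 was alone the highest at 7 and the lowest at 28. No share of all regions is given for that filter. The split of line 73 between high and low thus depended on the filter. The count for line 112 moved with single libraries, from 9 to 16 without its replicate 1 and to 3 without either library of line 119. The count for line 113 fell from 46 to 24 without its replicate 1, and that for line 119 fell from 49 to 29 and 32 without its replicates 1 and 2. Line 73 was also the line with high fibroblast marker values and a mixed melanocyte list. Mitf (38.2 and 40.0 CPM) and Pmel (75.8 and 73.3) were above all other libraries there, while Sox10, Tyr, Dct and Mlana were below all others and Tyrp1 lay between line 119 and the knockout lines. Line 119 was also below the knockout libraries for Tyr, Dct and Mlana. The part of these markers in the integrin and laminin values of line 73 was not tested.

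Itga5 was the clearest case in line 73. The sum over its 10 regions was 99.1 and 92.0 CPM in line 112, 103.1 and 98.2 in 113, 106.9 and 106.2 in 119 and 326.7 and 346.1 in 73. The first 3 lines were alike and line 73 was above them at 9 of 10 regions by the test of pairs. The start region 5 (chr15:103365400-103367022) had 35.1, 28.3, 39.6 and 40.2 CPM in the knockout libraries, 32.8 and 32.6 in line 119, and 70.4 and 74.7 in line 73. Weak regions across the surrounding 10 Mb were shifted as well, by 0.45 on the log2 scale in line 73 and by -0.46 in line 119 relative to the 4 lines. With that shift taken out, 5 of the 10 regions of Itga5 were high in line 73 alone. Itgb7, in the same stretch of chromosome 15, had 8.61 and 10.2 CPM summed in line 112, 10.6 and 10.2 in 113, 10.6 and 16 in 119 and 55.3 and 44.2 in 73.

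In the other direction, line 73 alone was low at 8 of 14 tested regions of Itga4, 7 of 30 of Itga9, 5 of 19 of Lama4, 5 of 21 of Itga8 and 4 of 9 of Lama5. Lama5 summed to 105.0 and 86.5 CPM in line 112, 112.6 and 101.8 in 113, 129.6 and 135.4 in 119 and 37.6 and 41.1 in 73. Lama4 summed to 177.3 and 89.9, 229.0 and 208.8, 164.0 and 172.9, and 78.1 and 83.1 CPM in the same order of lines. In both genes the 2 libraries of line 73 were below all others, and in Lama4 line 112 replicate 2 came close to them. Without line 112 replicate 1, Lama4 had 2 regions low in line 73 alone in place of 5. Without line 73 replicate 1, Itga8 had 2 in place of 5. At Itga6 region 3 (chr2:71766812-71767573), 19313 bp from a gene end, line 73 had 2 and 0 counts, whereas line 119 had 4.27 and 4.22 CPM, line 112 had 5.12 and 6.46, and line 113 had 14.5 and 12.3. At Lamc1 region 1 (chr1:153203980-153204510) line 73 was alone high, with 19.5 and 16.4 CPM against 0.675 to 1.85 elsewhere.

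Line 119 was alone high at 10 of 24 tested regions of Itga1, 4 of 9 of Lama5, 4 of 17 of Itgb8 and 4 of 30 of Itga9. Itgb8 region 10 (chr12:119194478-119195031) had 9.82 and 11.8 CPM in line 119, 0 and 0.768 in line 73 and 0.923 to 1.63 in the knockout libraries. Lama2 region 18 (chr10:27384570-27385084) had 6.98 and 7.77 in line 119 against 0.698 to 1.94 elsewhere. For Itga1 the count fell from 10 to 6 without either library of line 119 or without line 73 replicate 1, and for Lama5 from 4 to 2 and 1 without line 119 replicates 1 and 2. Line 112 was alone low at Itgb1 region 15 (chr8:128724738-128725321), with 2.56 and 1.54 CPM against 5.43 to 6.80 elsewhere, and alone high at 1 region, Itgb2 region 3, with 2.79 and 4.62 CPM against 0.906 to 1.54. These last values rest on 4 to 15 counts per library.

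Gene totals, the CPM summed over all regions of a gene, describe the 35 genes as wholes. In 2 genes every knockout library was above every wild-type library (Itga4 and Itga6; the same held for 7.78% of 17584 genes with a region). In 7 every one was below (Itga5, Itga7, Itgam, Itgb2, Itgb4, Lama3 and Lamb1; 10.7% of all genes), and in 26 the genotypes overlapped. The largest ratio of the knockout to the wild-type mean was that of Itga4 upward, with a log2 ratio of 1.24. Downward they were those of Itgb7 with -1.67, Itgb2 with -1.31 and Itga5 with -1.17, the last 3 carried by line 73. Itgb2 summed to 28.6 and 33.2 CPM in line 112, 18.6 and 16.4 in 113, 34.6 and 34.1 in 119 and 90.9 and 80.0 in 73. There the knockout libraries were all below, but line 119 exceeded line 112 by little. Both libraries of line 73 were above all other libraries in 12 genes (27.5% of all genes) and below them in 7 (10.7%). Those of line 113 were above in 7 (23.2%) and below in 6 (8.89%), those of line 119 above in 3 (10.2%) and below in 1 (24.9%), and those of line 112 above in 0 (5.24%) and below in 5 (14.8%). Between the highest and lowest line, totals differed most in Itgb7 (5.30-fold), Itga4 (4.88-fold) and Itgb2 (4.88-fold), and least in Itgb3 (1.22-fold). The plot of gene totals shows line 73 at both extremes.

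**Figure D5:**
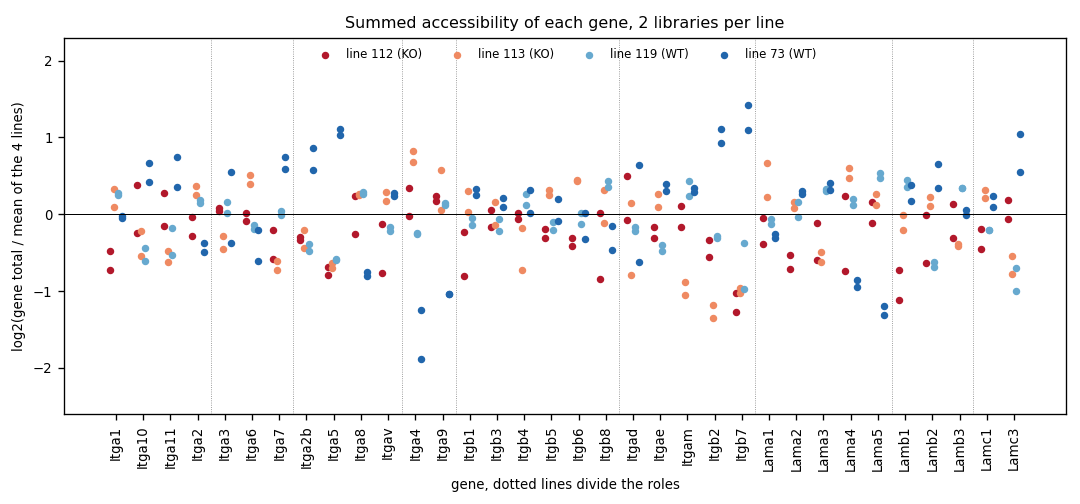
Gene total (CPM summed over the regions of a gene) in each library relative to the mean of the 4 lines, on a log2 scale, for 34 genes with regions. Line 73 is the highest at Itgb7, Itga5 and Itgb2 and the lowest at Itga4, Lama5, Itga9 and Lama4, while the points for Itgb3 lie close together.

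The partners and ligands of these receptors were counted from lists of genes that are not members. Among 23 cytoplasmic partners, which link integrin tails to actin and to signaling, 23 of 430 tested regions were separated higher in the knockout (5.35%) and 38 lower (8.84%), with a median log2 fold change of -0.26. Membrane partners and other laminin receptors, 9 genes, had 8 higher (6.72%) and 13 lower (10.9%) of 119, with a median of -0.16. Extracellular ligands, 12 genes of which 10 had regions, had 4 higher (2.94%) and 12 lower (8.82%) of 136, with a median of -0.13. The shares of all regions were 7.64% higher and 7.41% lower, and the differences of the lists from them were not tested. No region of any list passed the genotype test with lines as units. Among single partners, Tns3, a tensin of adhesion sites, had 2 separated regions higher and 9 lower of 49 tested, and Tns1 4 higher and 1 lower of 57. The talin gene Tln2 had 4 and 4 of 40, and the kinase gene Src 3 and 3 of 14. Cav1, the caveolin that organizes membrane domains, had 1 higher and 4 lower of 15. These partners were picked after their values were seen, and 15.1% of all regions were separated in either direction.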

How the data were processed

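The deposited table holds raw counts for 148664 regions of 501 to 3708 bp in 8 libraries, which the authors did not normalize, and has 0 columns of other samples. Starts were read as counted from 0, because 71.9% lie 250 bp before a peak summit counted that way, and 1 was added. The authors also deposited peaks called per library, with a score, a fold over background (ratio) and −log10 p and q per peak; only their positions were used here. The submitters' processing notes name Bowtie2 2.2.4, Picard 1.118, MACS2 2.1.1.20160309 and the builds mm10 and GRCm38, with no roles; the treatment of duplicates and what was counted (reads or cuts) are not given in the sources used here, so limits on counts cover counting error only.

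Genes came from the RefSeq table of GRCm38.p6 (21887 protein-coding genes placed). Members, roles and lists were chosen with earlier results of these data known. edgeR 4.0.16 in R 4.3.3 tested the whole table (filterByExpr with minimum count 10 and minimum total 15, TMM, glmQLFit with robust estimation, glmQLFTest, two-sided, Benjamini-Hochberg, threshold 0.05), with lines as units for the genotype and libraries for pairs of lines. A standard error is the log2 fold change divided by the square root of F. Peaks overlapped a region by at least 1 bp (bedtools 2.31.1). The scripts were tested on simulated data. The named regions were the start region of each gene, the 10 regions of lowest genotype p on either side of 0, 10 separated regions in each direction with the largest least difference, 3 private to each line, and the regions of the 3 genes with most separated regions (a tie made 4); others were named after their values were seen, namely the remaining separated regions, Itga9 region 2 and the partners with several separated regions. 1 member gene is counted in the totals but not reported here. Alternatives, given in the closing section, included DESeq2 1.42.0 and limma 3.58.1. Motifs in member regions were not run, since a genome sequence was not used here.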

Additional observations from a re-analysis of the deposited data

Results flagged for a closer look

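Of 124 sets of 4 libraries (a genotype at a named region), 5 held a single library that stood away from the remaining 3. By chance about 1 set in 20 would. Line 112 replicate 2, the shallowest library, accounted for 3 of them: 39.4 CPM at the start of Lama4 (region 1), where the other knockout libraries had 83.8 to 91.3, 10.8 CPM at the start of Lamb2 (region 2), where they had 18.1 to 18.6, and 3.39 CPM at Lama3 region 10, where they had 1.16 to 1.36. Line 119 replicate 2 had 8.61 CPM at the start of Lama1 (region 3), below 10.6 to 10.8 in the other wild-type libraries. Line 73 replicate 1 had 22 CPM at the start of Itga2 (region 13), above 20.6 to 20.8 in the others, a small gap in a tight set.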

How the results depend on the processing

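The numbers of member regions called depended most on the test and on the filter. The DESeq2 Wald test called 22 for the genotype (edgeR 0), 96 for line 112 against 119, 45 for 112 against 113, 35 separated, and 3, 20 and 21 private to lines 112, 113 and 119. That test left 5 separated regions at Itga9, 2 at Lamb1, 1 at Itga4 and 1 at Itgb2. It left 0 at Itga2, Itgae, Lama1, Lama3 and Lama5, 0 higher ones at Lamc1 and Lama2, and 0 lower ones at Itgb8. Lama2 kept its 4 lower regions. A mean count of at least 50 left 76 members to test in place of 443, so its counts cannot be set directly beside the main ones. It gave 36, 51, 40, 56, 18 and 54 for the pairs 112 with 119, 112 with 73, 113 with 119, 113 with 73, 112 with 113 and 119 with 73. Of the 76, 14 were separated, and 1, 9, 11 and 35 were private to lines 112, 113, 119 and 73. For the genotype, regions with a peak call alone gave 1, limma-voom 1 and libraries as units 94; regions with a peak call alone gave 3 private to line 112.

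Leaving out 1 library at a time gave 0 to 1 for the genotype (1 without line 112 replicate 1), 113 to 182 for line 112 against 119 (113 without 119 replicate 1), 192 to 227 for 112 against 73, 177 to 248 for 113 against 119, 223 to 271 for 113 against 73, 46 to 101 for 112 against 113 (46 without 113 replicate 1), 194 to 256 for 119 against 73, 45 to 67 separated, and 3 to 16, 24 to 51, 29 to 55 and 119 to 141 private to lines 112, 113, 119 and 73.

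Replicate numbers did not pair the libraries (correlations of replicate differences between lines from -0.04 to 0.0045), and with a replicate block the pairs gave 180, 230, 228, 254, 85 and 244 and 65 were separated.

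Of 1004 genotype log2 fold changes of 62 named regions under alternatives, 929 kept direction and side of the threshold, 58 passed the threshold and 17 changed sign, in 5 regions all near 0. Itgb1 region 9 went from -0.05 to 0.026 with peak-called regions and 0.073 in voom, and ran from -0.19 to 0.0225 over the fits that left out a library. Lama1 region 3 went to -0.12 in voom. Lama3 region 2 went to 0.18 with the regional offset and ran from -0.45 to 0.27 without 1 library (above 0 without replicate 1 of line 112, 119 or 73). Lamb2 region 2 ran from -0.14 to 0.22 without 1 library (below 0 without line 112 replicate 1 or line 73 replicate 2). Lamb3 region 3 went to 0.091 with total counts, 0.18 with the regional offset and 0.023 with libraries as units, and ran from -0.68 to 0.43 without 1 library. None of 70 gene total ratios moved by more than the spread, and 2 changed sign. The cause of these changes was not tested. Depth limits the weakest regions, where 1 count is worth 0.129 to 0.308 CPM.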
